A study of Mus musculus with 16 samples.

Results

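The 9 genes described here are interferon-linked genes of 4 kinds, namely the PARP genes Parp9, Parp10, Parp12 and Parp14, the ubiquitin ligase gene Dtx3l, the tripartite-motif genes Trim21, Trim25 and Trim30a, and Lgals3bp. They were taken by symbol from the 24485 gene IDs of the series, and all 9 were found. They were chosen by their FPKM differences between the lines at day 16 and over the days, which were already known, so their levels and the p-values given with them are descriptions and not independent evidence. The cells were immortalized mouse embryonic fibroblasts (MEFs) of 2 lines, whose RNA was sequenced. The exp line is R26M2rtTA/+;TetOcre;Sdhcfl/fl and the ctl line is R26M2rtTA/+;TetOcre;Sdhcfl/wt, so both carry the transactivator and the Cre transgene, and both were given doxycycline, at 1 µg/mL per the labels' protocols. Doxycycline switches on Cre, which can remove both copies of Sdhc, a subunit gene of succinate dehydrogenase, in exp cells and the floxed copy in ctl cells. Each line gave 8 libraries, 3 biological replicates at day 16 of doxycycline and 1 library for each other day (0, 5, 9, 12 and 20). With 1 line per genotype, line and genotype cannot be told apart, and the p-values measure the spread between these libraries only.

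Interferons bind receptors that activate transcription factors, among them STAT2 and IRF9, which switch on interferon-stimulated genes. Many such genes encode enzymes that tag proteins. PARP9, PARP10, PARP12 and PARP14 belong to the ADP-ribosyltransferase family, of which PARP10, PARP12 and PARP14 attach single ADP-ribose units. DTX3L is a ubiquitin ligase that works in a complex with PARP9, and most TRIM proteins are RING-type ubiquitin ligases with roles in antiviral defence. In fibroblasts these genes are expressed at a basal level and can be raised by interferon or by signals that lead to it.

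Near their starts, Trim21, Trim30a and Lgals3bp have letters like those of the interferon-stimulated response element, and these stretches are shown because interferon-activated factors are known to bind that element. Start regions of 250 bases before to 50 after the start, from RefSeq on GRCm38.p6, were matched for 6 of the 9 genes (Dtx3l, Parp12, Trim21, Trim25, Trim30a and Lgals3bp). Both strands were searched for GAAANNGAAA, GAAANNNGAAA and TTCNNNGAA, the last being the core of the gamma-activated site. The Trim21 stretch is chr7:102565449-102565478, the Trim30a stretch is chr7:104465194-104465253 and the Lgals3bp stretch is chr11:118401960-118402019, each read from the minus strand, which is the strand of the gene. Capitals mark the motif matches.
Trim21: ctctgagagGAAACTGAAAGTGAAAtttgg
Trim30a: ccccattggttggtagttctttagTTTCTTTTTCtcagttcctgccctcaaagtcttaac
Lgals3bp: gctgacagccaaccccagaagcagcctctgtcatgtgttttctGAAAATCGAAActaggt
Trim21 held GAAANNGAAA at bases 14 to 23 and again, overlapping it, at bases 20 to 29 after the start. Trim30a held it on the opposite strand, from base -36 to base -27, and also at bases 3 to 12 of a second listed start. Lgals3bp held the form with a spacer longer by a base, GAAANNNGAAA, from base -17 to base -7. Of 32851 start regions in the table, 3.44% held GAAANNGAAA, 2.75% held GAAANNNGAAA and 8.3% held TTCNNNGAA. None of the 3 motifs was found in the windows of Dtx3l, Parp12 or Trim25, and TTCNNNGAA was in none of the 6 genes' windows. A match is a description of letters and says nothing of binding in these cells.

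The libraries held 18121520 to 42486438 reads in genes. Levels are FPKM, the reads of a gene scaled to its length and to the size of the library, so levels of different genes can be set side by side. Sdhc averaged 32.0 ± 5.23 FPKM in exp and 49.4 ± 1.66 FPKM in ctl at day 16 (SD, n = 3 each), a log2 difference of -0.62 (SE 0.12, adjusted p = 0.0434). Its level fell in both lines, and much of the fall had come by day 5. In exp it was 87.8, 54.4 and 42.5 FPKM at days 0, 5 and 20, and in ctl 90.5, 58.6 and 54.7 FPKM, from 1 library each. All 9 of the fibroblast markers examined were expressed, and their summed level was 4601 to 5330 FPKM in exp and 4117 to 4407 FPKM in ctl. At day 16, 3 of them were higher in exp, namely Col1a2 by 2.72, Thy1 by 2.34 and Col3a1 by 1.5 on the log2 scale, and 2 were lower, Pdgfra with a difference of -1.5 and S100a4 with -0.62 (limma adjusted p from 0.000275 to 0.0466). The part of these fibroblast markers in the results for the 9 genes was not tested. Of 11 leukocyte and macrophage markers, 9 were under 1 FPKM in every library, Adgre1, Tyrobp and Cd3e were at 0 throughout, and the list summed to 3.51 to 5.16 FPKM in exp and 4.85 to 6.60 FPKM in ctl. The 5 epithelial markers summed to 19.1 to 143 FPKM in exp and 7.59 to 15.0 FPKM in ctl, and the 5 endothelial markers were each under 1 FPKM. At day 16, replicates 2 and 3 resembled each other (r = 0.995 in exp and 0.997 in ctl over genes), while replicate 1 stood apart from them, with r of 0.951 and 0.953 in exp and 0.979 and 0.981 in ctl. For the 9 genes, the day 16 values are therefore given for each replicate. The day 16 means and the fits over 16 libraries combine both sets. In some genes replicate 1 was nearer to days 12 and 20. Plec, chosen after its values were seen, had 35.9 and 32.5 FPKM in exp on those days. Its exp replicates 1, 2 and 3 of day 16 had 33.6, 54.9 and 55.3 FPKM. In ctl it had 54.5 and 50.7 FPKM, and 59.6, 78.0 and 76.3 FPKM in the replicates. Which set was nearer over all genes was not tested.

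At day 16, the only day with replicates, 6 of the 8 genes that passed the filter on low values were higher in exp, namely Lgals3bp, Parp14, Parp9, Dtx3l, Parp12 and Trim21. Over all 12533 genes tested, 3.1% were called higher in exp. Genes averaging at least 1 FPKM were fitted with limma as log2(FPKM + 1), with p-values adjusted by Benjamini-Hochberg over all genes and a threshold of 0.05. The median difference of the 8 genes was 0.80 on the log2 scale, and that of all genes was -0.01. In 7 of the 8, every exp replicate lay above every ctl replicate, an ordering that 15.5% of all genes tested showed, while 16.5% showed the opposite one. The count of 6 was 3 without exp replicate 2, ctl replicate 2 or ctl replicate 3, each left out alone. In bulk RNA, fewer cells that express a gene and less RNA of it per cell cannot be told apart. Trim25 was the gene whose replicates overlapped, and Trim30a did not pass the filter, with a mean over all 16 libraries of 0.517 FPKM.

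The order of the lines was different at the start. At day 0, 1 of the 8 genes was higher in exp, and their median difference, exp minus ctl, was -0.31 on the log2 scale. It was -0.30 at day 5, when 1 of 8 was higher, and 0.14 at day 9, when 5 of 8 were. It was 0.50 at day 12 with 7 of 8 higher, and 0.64 at day 20 with 8 of 8 higher. The day 16 replicates 1, 2 and 3 gave medians of 0.62, 0.89 and 0.80, with 8 of 8 higher in each. The share of all genes that were higher in exp was 58.1% for day 0, 48.8% for day 5, 52.2% for day 9, 55.4% for day 12 and 46.5% for day 20. For day 16, the fit over the 3 replicates of each line gave a positive difference in 48.5% of all genes tested. Days other than day 16 have 1 library per line, so these differences have no replicate check of their own.

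**Figure D1:**
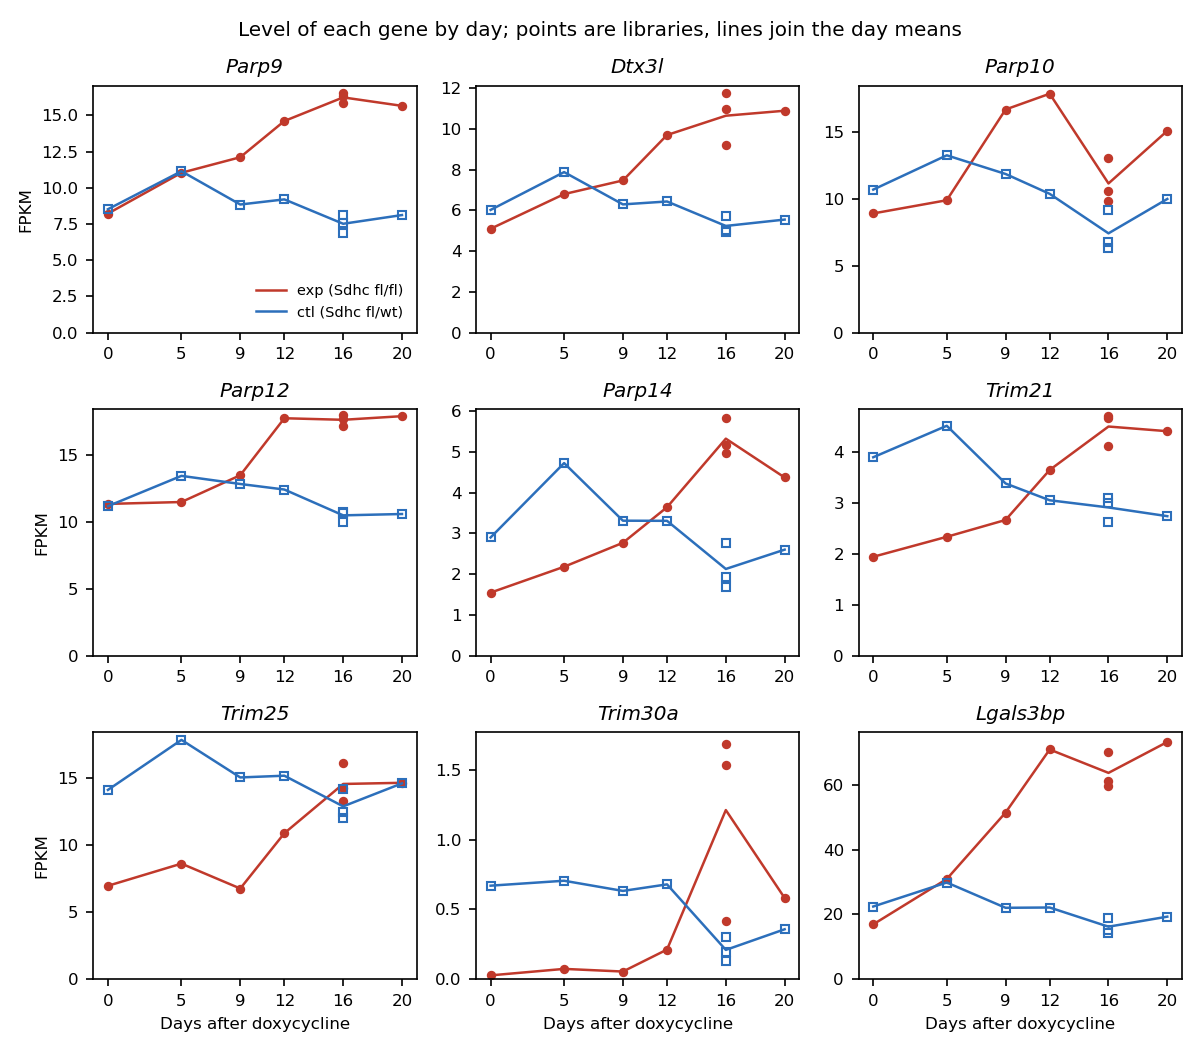
FPKM (y axis) of each of the 9 genes against day of doxycycline (x axis), with exp in red and ctl in blue; points are libraries and lines join the day means. Lgals3bp in exp climbs to 73.3 FPKM at day 20 while ctl lies at 19.3 FPKM, and Trim25 in exp reaches the ctl level only from day 16.

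**Figure D2:**
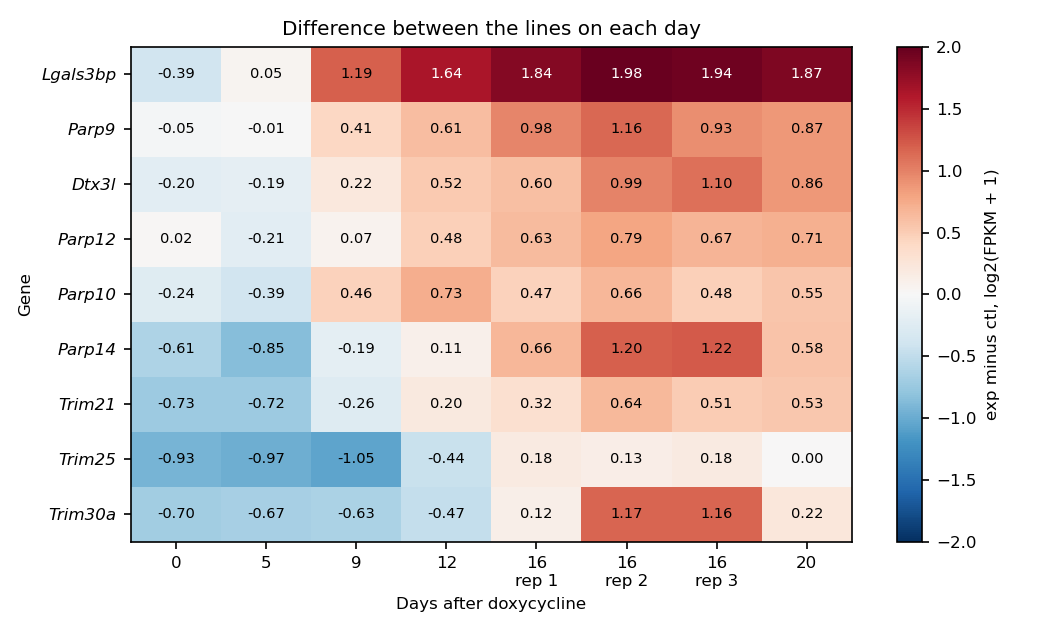
Exp-minus-ctl difference in log2(FPKM + 1), shown by colour and number, for each of the 9 genes (rows) on each day (columns, with day 16 by replicate). Lgals3bp is at 1.87 at day 20, while Trim25 is at -0.93 at day 0 and near 0 at day 20.

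Lgals3bp, which encodes a secreted glycoprotein that binds galectin-3, had the highest level of the 9 genes and the largest log2(FPKM + 1) difference at day 16 of the 8 tested. It is encoded on the minus strand of chromosome 11, at 118254065 to 118263406 in mm9. In exp it had 16.9, 30.9, 51.5 and 71.0 FPKM at days 0, 5, 9 and 12, then 70.3, 59.7 and 61.2 FPKM in the 3 replicates of day 16, and 73.3 FPKM at day 20. In ctl it had 22.4, 29.9, 22.0 and 22.1 FPKM at days 0, 5, 9 and 12, then 19.0, 14.4 and 15.2 FPKM at day 16, and 19.3 FPKM at day 20. The lines were close at day 5, and from day 9 every exp value was above every ctl value. At day 16 it averaged 63.7 ± 5.74 FPKM in exp and 16.2 ± 2.44 FPKM in ctl (SD, n = 3 each), a ratio of 3.94. The log2 difference was 1.92 (SE 0.12, adjusted p = 0.000936). The difference was 1.84 in replicate 1 and 1.96 in the mean of replicates 2 and 3. No galectin gene passed the same test. Of 8 listed galectins, 5 were tested at day 16 and 0 were called by limma, 1 of them having an unadjusted p under 0.05, with a median difference of -0.13 against -0.01 for all genes. Lgals3, the binding partner, had 85.6, 125 and 125 FPKM in the exp replicates of day 16, against 235, 178 and 188 FPKM in the ctl replicates. The groups did not overlap, and the log2 difference of -0.85 (SE 0.18) did not pass (adjusted p = 0.0542). Within exp, Lgals7 fell over the days by 1.99 per 20 days on the log2 scale (SE 0.46, adjusted p = 0.0309), and it was the galectin called there of 6 tested.

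Parp9 and Dtx3l, whose products act together, also had like profiles in these libraries. The 2 genes lie head to head on chromosome 16 in mm9, Parp9 on the plus strand at 35938556 to 35972691 and Dtx3l on the minus strand at 35926597 to 35939237. They share 682 bases, 458 of them exonic in both, and use of strand in counting was not stated, so reads in the shared stretch may be counted for either gene. Parp9 had 8.22, 11.0, 12.1 and 14.6 FPKM in exp at days 0, 5, 9 and 12, 15.9, 16.5 and 16.3 FPKM at day 16, and 15.7 FPKM at day 20. In ctl it had 8.52, 11.1, 8.85 and 9.20 FPKM on the same 4 early days, 7.58, 6.87 and 8.10 FPKM at day 16, and 8.12 FPKM at day 20. The lines were alike through day 5 and separated from day 9, and from day 12 no exp value reached down to any ctl value. Dtx3l had 5.09, 6.80, 7.47 and 9.69 FPKM in exp on the same days, 9.18, 11.0 and 11.8 FPKM at day 16, and 10.9 FPKM at day 20. The ctl line had 6.02, 7.87, 6.29 and 6.43 FPKM of Dtx3l, then 5.70, 5.05 and 4.95 FPKM at day 16, and 5.55 FPKM at day 20. Its exp and ctl values separated from day 9, as those of Parp9 did. At day 16 the log2 difference was 1.02 for Parp9 (SE 0.07, adjusted p = 0.00138) and 0.90 for Dtx3l (SE 0.11, adjusted p = 0.00843). Parp9 held this call in each alternative tried, while Dtx3l lost it without exp replicate 2, ctl replicate 2 or ctl replicate 3, with adjusted p from 3.83e-05 to 0.0576 over its alternatives.

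The ratio of Parp9 to Dtx3l stayed within a narrow range while both levels changed. It was 1.39 to 1.73 over the 8 exp libraries (median 1.56) and 1.33 to 1.64 over the 8 ctl libraries (median 1.42). Over the 16 libraries, which share 2 lines, the correlation of their log2 levels was r = 0.97. Reads in the shared exons can count toward either gene, and their part in this likeness was not tested.

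Parp12 and Parp14, both mono-ADP-ribosyltransferases, were higher in exp at day 16 from different starting points. Parp12 (minus strand of chromosome 6, 39036409 to 39068348 in mm9) began alike in the lines, at 11.3 FPKM in exp and 11.2 FPKM in ctl at day 0. At day 16 it had 17.2, 18.0 and 17.7 FPKM in exp, against 10.7, 10.0 and 10.7 FPKM in ctl. Its log2 difference of 0.70 (SE 0.06, adjusted p = 0.00229) held in each alternative tried. Parp14, a macrodomain protein that acts with STAT6, is near the Parp9 and Dtx3l pair, on the minus strand of chromosome 16 at 35832960 to 35871630. It had 1.55, 2.18, 2.77 and 3.64 FPKM in exp at days 0, 5, 9 and 12, then 4.98, 5.16 and 5.83 FPKM at day 16, and 4.37 FPKM at day 20. In ctl it had 2.90, 4.73, 3.31 and 3.31 FPKM at days 0, 5, 9 and 12, then 2.78, 1.69 and 1.92 FPKM at day 16, and 2.60 FPKM at day 20. Exp was thus below ctl through day 9 and above it from day 12. The day 16 log2 difference was 1.03 (SE 0.15, adjusted p = 0.0172). It was 0.66 in replicate 1 and 1.21 in replicates 2 and 3. The call was lost without replicate 2 or 3 of exp, or replicate 2 or 3 of ctl, each left out alone, with adjusted p from 9.96e-05 to 0.0948 over its alternatives.

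Parp10, a mono-ADP-ribosyltransferase that modifies cytoplasmic and nuclear proteins, followed the group least closely of the PARP genes. It is encoded on the minus strand of chromosome 15, at 76061604 to 76073871 in mm9, where it shares 205 exonic bases with Plec on the same strand. In exp it had 8.93, 9.92, 16.7 and 17.9 FPKM at days 0, 5, 9 and 12, then 13.1, 10.6 and 9.83 FPKM at day 16, and 15.1 FPKM at day 20. In ctl it had 10.7, 13.3, 11.9 and 10.4 FPKM at days 0, 5, 9 and 12, then 9.21, 6.32 and 6.78 FPKM at day 16, and 10.0 FPKM at day 20. In both lines replicate 1 of day 16 was above replicates 2 and 3, so the spread within a line was close to the distance between the lines. The log2 difference of 0.54 (SE 0.16) did not pass (adjusted p = 0.120). With the replicate number as a block it passed (adjusted p = 0.0288), and it passed in replicates 2 and 3 alone (adjusted p = 0.000751). Those 2 replicates were alike (r = 0.995 in exp and 0.997 in ctl), so that fit leaves out most of the spread between replicates. The lowest adjusted p of Dtx3l, Parp14 and Trim21 over their alternatives came from the same fit. For Parp10 the adjusted p ran from 0.000751 to 0.327 over its alternatives.

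The 3 TRIM genes began below their ctl level and approached or passed it later. Trim21, an antibody receptor of the cytosol and ubiquitin ligase (minus strand of chromosome 7, 109706436 to 109713983 in mm9), had 1.94, 2.33, 2.66 and 3.64 FPKM in exp at days 0, 5, 9 and 12, then 4.12, 4.67 and 4.70 FPKM at day 16, and 4.40 FPKM at day 20. The ctl line had 3.89, 4.51, 3.38 and 3.05 FPKM on the early days, then 3.10, 2.63 and 2.99 FPKM at day 16, and 2.74 FPKM at day 20. The lines crossed between days 9 and 12. At day 16 Trim21 averaged 4.50 ± 0.327 FPKM in exp and 2.91 ± 0.246 FPKM in ctl (SD, n = 3 each), a log2 difference of 0.49 (SE 0.09, adjusted p = 0.0393). Its adjusted p was the highest of the 6 called genes. The call was lost with the replicate number as a block (adjusted p = 0.0589), under quantile normalization and without any 1 of 5 of the 6 replicates, the exception being exp replicate 1, with adjusted p from 0.00144 to 0.153.

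Trim25, the ubiquitin and ISG15 ligase known for its part in RIG-I signalling, was below ctl through day 12 and close to it afterwards. It is encoded on the plus strand of chromosome 11, at 88860690 to 88881607 in mm9. In exp it had 6.97, 8.63, 6.77 and 10.9 FPKM at days 0, 5, 9 and 12, then 16.2, 13.3 and 14.3 FPKM at day 16, and 14.7 FPKM at day 20. In ctl it had 14.1, 17.9, 15.1 and 15.2 FPKM at days 0, 5, 9 and 12, then 14.2, 12.0 and 12.5 FPKM at day 16, and 14.6 FPKM at day 20. The ctl values stayed within 12.0 to 17.9 FPKM, and the exp values came up into that range. The day 16 groups overlapped, with a log2 difference of 0.16 (SE 0.10, adjusted p = 0.387). Partners of Trim25 in that pathway were listed too. Of 6 RIG-I pathway genes, 3 were higher in exp at day 16, namely Ifih1 by 1.49 (SE 0.08), Ddx58, which encodes RIG-I, by 0.77 (SE 0.11) and Dhx58 by 0.56 (SE 0.11) on the log2 scale. The median of the 6 was 0.33 against -0.01 for all genes, of which 3.1% were called higher in exp. Within exp, Ifih1 rose by 1.29 (SE 0.19, adjusted p = 0.00504) and Ddx58 by 1.11 (SE 0.20, adjusted p = 0.0125) per 20 days, and the slope of exp was steeper than that of ctl by 1.70 for Ifih1 (adjusted p = 0.0301) and 1.54 for Ddx58 (adjusted p = 0.0357). Of all genes tested, 1.36% were called as rising within exp and 0.183% as steeper in exp than in ctl.

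Trim30a, known in mouse as a restrainer of Toll-like receptor signalling, was the least abundant of the 9 genes and had the widest range. It is encoded on the minus strand of chromosome 7, at 111557539 to 111613707 in mm9. In exp it had 0.0266, 0.0732, 0.0542 and 0.212 FPKM at days 0, 5, 9 and 12, then 0.418, 1.69 and 1.54 FPKM at day 16, and 0.582 FPKM at day 20. In ctl it had 0.671, 0.706, 0.633 and 0.680 FPKM at days 0, 5, 9 and 12, then 0.304, 0.194 and 0.131 FPKM at day 16, and 0.358 FPKM at day 20. Exp was below ctl in every library through day 12 and above it at days 16 and 20. At day 0 these levels rest on 2 reads in exp and 81 reads in ctl, a ratio of 0.0397 with a 95% interval of 0.00473 to 0.148, which covers counting error only. In exp at day 16 they rest on 47, 250 and 242 reads, and in ctl on 40, 31 and 20 reads. Without the filter on low values the day 16 log2 difference was 0.82 (SE 0.26, adjusted p = 0.170), which the added 1 FPKM pulls toward 0. With limma voom on the recovered reads it was 2.48 (SE 0.73, adjusted p = 0.103). Neither passed. In log2(FPKM + 1) the difference was 0.12 in replicate 1 and 1.17 in the mean of replicates 2 and 3. The FPKM ratios of exp to ctl were 1.37, 8.72 and 11.7 in replicates 1, 2 and 3.

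In exp at day 16, mesothelial markers also separated replicate 1 from replicates 2 and 3. All 5 of those markers were expressed and their summed level ran from 60.4 to 893 FPKM in exp and from 85.6 to 121 FPKM in ctl. The lines differed already at day 0, with 1 library each. Upk3b had 84.8 FPKM in exp and 0.552 FPKM in ctl there, and Upk1b had 31.3 and 0.141 FPKM. Lrrn4 had 29.6 FPKM in exp and 0.153 FPKM in ctl at day 0, and Wt1 had 9.51 and 0.0202 FPKM. Msln was close, at 78.3 FPKM in exp and 84.8 FPKM in ctl. At day 16, 2 of the 5 were higher in exp, Upk3b by 5.80 (SE 1.12, adjusted p = 0.0414) and Upk1b by 4.61 (SE 0.87, adjusted p = 0.0389) on the log2 scale. Msln ran the other way, at 55.8 ± 65.6 FPKM in exp and 114 ± 8.94 FPKM in ctl (SD, n = 3 each), and did not pass (adjusted p = 0.273). Upk3b, the most separated of them and chosen after its values were seen, had 455, 22.9 and 28.0 FPKM in exp replicates 1, 2 and 3 and 433 FPKM at day 20, against at most 0.611 FPKM in ctl. Among the 9 genes, Trim30a, Parp14, Dtx3l, Trim21, Parp12 and Parp9 were lower in exp replicate 1 of day 16 than in replicates 2 and 3. Parp10, Lgals3bp and Trim25 were higher in it. Some gaps were small, with Parp9 at 15.9 against 16.5 and 16.3 FPKM and Parp12 at 17.2 against 18.0 and 17.7 FPKM. In ctl, where Upk3b had 0.211, 0.220 and 0.242 FPKM at day 16, Parp14, Dtx3l, Trim21, Parp12 and Trim30a were instead higher in replicate 1. Parp10, Lgals3bp and Trim25 were higher in ctl replicate 1 too, and Parp9 lay between replicates 2 and 3. The share of all genes in either order was not computed, and 1 library often lies outside 2 others when no difference exists. The part of the mesothelial markers in these replicate differences was not tested.

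Most of the TRIM genes that neighbour Trim30a were also below ctl at day 0. Of 10 other TRIM genes annotated within 1000000 bases of it in mm9, 7 had a level in ctl at day 0, and 6 of the 7 were lower in exp, while 58.1% of all genes tested were higher. The filter on low values was passed by 3 of the 7, namely Trim12c, Trim12a and Trim34a. The ratio of exp to ctl was 0.353 for Trim12c, 0.509 for Trim12a and 0.612 for Trim34a, which rest on 102, 81 and 35 reads in exp and 464, 256 and 92 reads in ctl. Trim30d, the next gene on its other side, had 1 read in exp and 61 reads in ctl, a ratio of 0.0264 with a 95% counting interval of 0.000657 to 0.152. For Trim5 the ratio was 0.153 with an interval of 0.0174 to 0.626. Trim34b, with 1 read in exp, had an interval of 0.00407 to 1.29 that includes equal levels. Trim6 went the other way, with a ratio of 3.67. Several of these genes are near-identical copies and some overlap, so reads may be split between them, and each ratio compares 1 library per line.

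**Figure D3:**
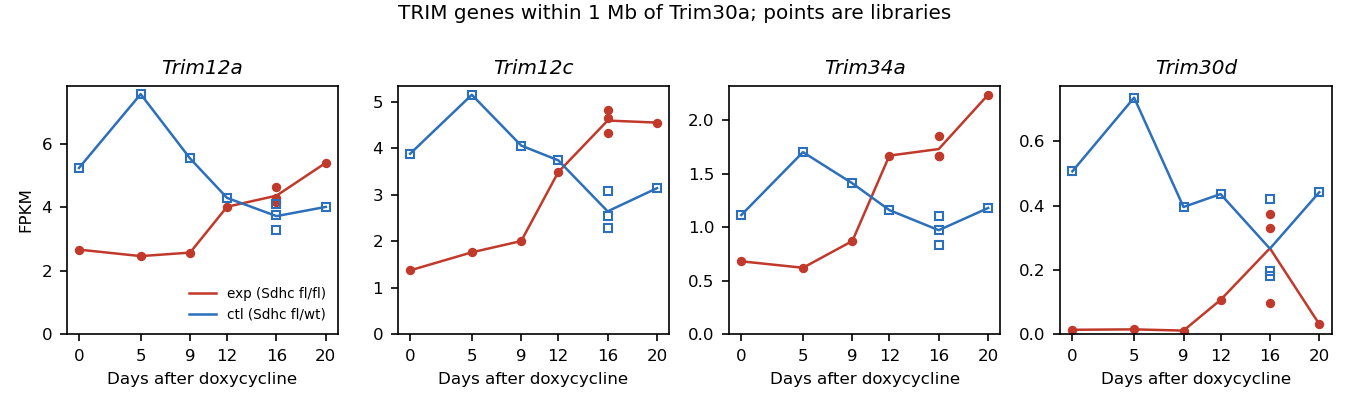
FPKM (y axis) of 4 TRIM genes beside Trim30a, namely Trim12a, Trim12c, Trim34a and Trim30d, by day of doxycycline (x axis), with exp in red and ctl in blue; points are libraries and lines join the day means. At day 0 exp lies below ctl in each panel, at 0.509 of ctl for Trim12a and 0.353 for Trim12c.

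Within exp, 7 of the 8 tested genes rose over the 20 days, against 1.36% of all 12559 genes tested that rose. The slope, given per 20 days on the log2 scale, was 1.99 for Lgals3bp (SE 0.29, adjusted p = 0.00485), 1.41 for Parp14 and 1.19 for Trim25. It was 1.07 for Trim21, 1.04 for Dtx3l, 0.94 for Parp9 and 0.77 for Parp12, with adjusted p from 0.00337 to 0.0155 over the 7. Parp10 had a slope of 0.41 (SE 0.34, adjusted p = 0.483), which was 0.71 with the replicate block (adjusted p = 0.0752) and ran from 0.08 to 0.83 over its alternatives. The median of the 8 was 1.05, and that of all genes was -0.09. None of the 7 passed without day 0 and 1, Lgals3bp, passed without day 16, while 4 passed with the day 16 replicates averaged. Leaving out a day also leaves fewer libraries. The slopes stayed above 0 in each alternative, with lowest values from 0.54 for Trim21 to 1.41 for Lgals3bp.

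Within ctl, no tested gene was called in either direction, 0% of all genes. All 8 genes had a negative slope, from -0.65 to -0.23 per 20 days with a median of -0.43, against -0.03 for all genes. A positive slope in ctl was seen for 41.3% of all 12559 genes, so most genes had a negative one. Trim21, Lgals3bp and Parp14, 3 of the 8, had an unadjusted p under 0.05, as had 203 of 12559 genes, and limma voom called 0 of the 8. The highest ctl level of each of the 9 genes was that of day 5, which is 1 library. The share of all genes with their highest ctl level there was not computed. Outside the 9, Ddx58 (17.5 FPKM), Irf9 (24.9 FPKM) and Stat2 (18.7 FPKM) also had theirs at day 5, while Lgals3 and Plec had theirs at day 16.

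The slopes of the lines differed for 4 of the 8 genes, against 0.183% of all genes with a steeper slope in exp. The difference per 20 days was 2.63 for Lgals3bp (SE 0.32, adjusted p = 0.0195), 1.59 for Trim21 (SE 0.21, adjusted p = 0.0195), 1.39 for Dtx3l (SE 0.22, adjusted p = 0.0325) and 1.26 for Parp9 (SE 0.19, adjusted p = 0.0301). Parp14 at 2.0, Trim25 at 1.42, Parp12 at 1.01 and Parp10 at 1.00 did not pass, with adjusted p from 0.0617 to 0.292. The call for Dtx3l was lost with the replicate number as a block (adjusted p = 0.0530, with 0.0185 to 0.214 over its alternatives). None of the 4 held without day 0, without day 16, with the day 16 replicates averaged or without exp replicate 2 of day 16, 1 held without ctl replicate 3, and 2 held without exp replicate 3 or without ctl replicate 1. The median of the 8 was 1.40, and that of all genes was -0.06.

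**Figure D4:**
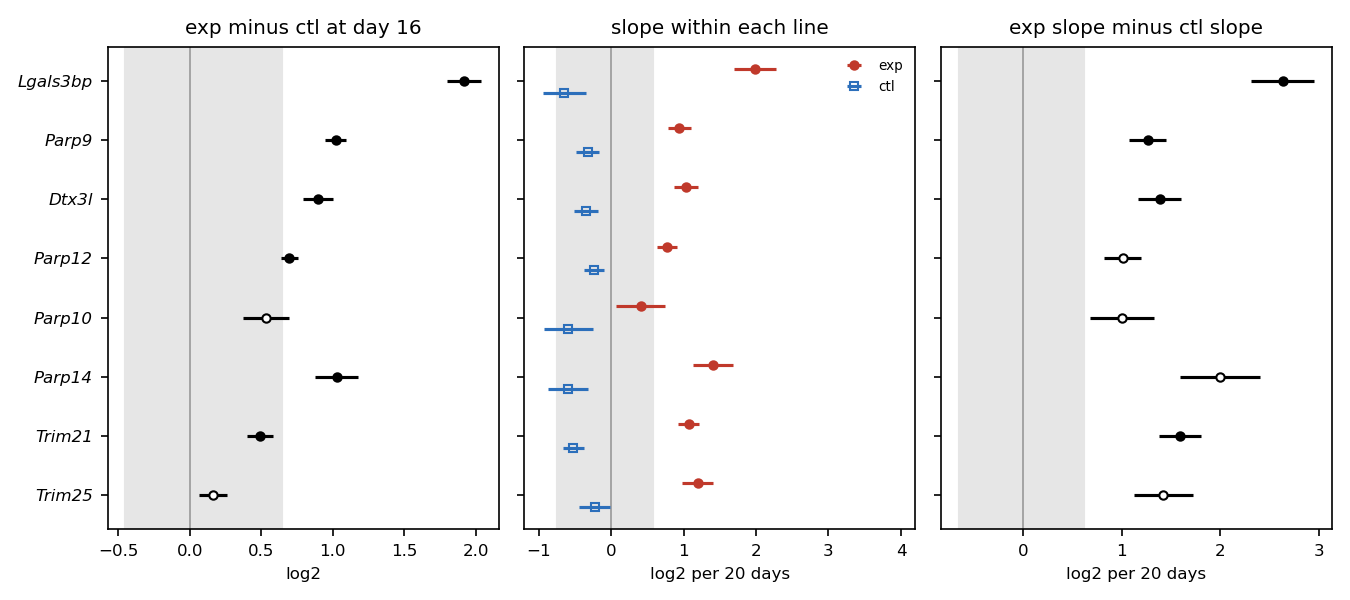
Log2 difference at day 16 (left), slope within each line (middle, exp filled and red, ctl open and blue) and difference of slopes (right) for the 8 tested genes, on x axes in log2 or log2 per 20 days; bars are 1 SE and grey bands hold the 5th to 95th percentile of all genes tested, of exp slopes in the middle. Filled points in the outer panels have an adjusted p under 0.05, from Lgals3bp at 1.92 to Trim21 at 0.49 on the left.

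Days 12 to 20 were also set against days 0 to 9 as a step. The exp-minus-ctl difference was larger on the later days for 3 of the 8 genes, against 0.175% of all genes, by 1.01 for Trim21 (SE 0.15, adjusted p = 0.0391), 0.99 for Trim25 (SE 0.16, adjusted p = 0.0444) and 0.70 for Parp12 (SE 0.09, adjusted p = 0.0292). The other 5 had steps of 0.63 to 1.57 with adjusted p from 0.0557 to 0.418. None of the 3 held with the replicate block or without day 16, and at most 1 held with any 1 day 16 replicate left out. The step also passed for 3 of 33 other TRIM genes, at 1.43 for Trim12c (adjusted p = 0.0292), 1.15 for Trim12a (adjusted p = 0.0292) and 0.94 for Trim34a (adjusted p = 0.0444). It passed too for Ifih1 of the RIG-I pathway, at 1.09 (adjusted p = 0.0444), and for the transcription factor gene Irf9, at 0.85 (adjusted p = 0.0391).

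The 9 genes fell into 2 shapes, a division made after their values were seen. At day 0 the exp level was 0.75 to 1.02 of the ctl level for Lgals3bp, Parp10, Dtx3l, Parp9 and Parp12, and the exp level later exceeded ctl. It was 0.534, 0.499, 0.493 and 0.0397 of ctl for Parp14, Trim21, Trim25 and Trim30a, and their exp level met or passed the ctl level from day 12 or day 16. Of the 8 tested genes, 3 (Parp14, Trim21 and Trim25) were at or below 0.55 of ctl at day 0, as were 4.18% of all genes tested, a bound chosen after the values were seen. At day 20 the ratio was 1.68 for Parp14, 1.61 for Trim21, 1.00 for Trim25 and 1.63 for Trim30a. For Lgals3bp, Dtx3l and Parp9 it was 3.8, 1.96 and 1.93. Over the 16 libraries, the correlation of each gene with the mean of the others was 0.94 for Dtx3l and Parp14, 0.92 for Parp12, 0.89 for Parp9, 0.88 for Lgals3bp, 0.83 for Trim21, 0.59 for Parp10 and 0.29 for Trim25. These describe 16 libraries of 2 lines.

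Few relatives of these genes passed the test at day 16. Of 12 other PARP genes tested, 1 was higher in exp, Zc3hav1, which encodes the catalytically inactive antiviral protein ZAP, at 20.0 FPKM in exp and 15.0 FPKM in ctl (log2 difference 0.39, SE 0.07, adjusted p = 0.0354). The list's median was -0.03. Of 4 other deltex genes 3 were tested, and of 7 genes for ADP-ribose hydrolases, which remove the mark, 5 were tested, and none passed at day 16 or in the slope difference. Within exp, Parp2, a DNA-damage PARP, fell by 0.54 (adjusted p = 0.0226), and so did the hydrolase gene Oard1, with a slope of -0.54 (adjusted p = 0.0226), as 3.59% of all genes fell. Zc3hav1 rose within exp, by 0.56 (SE 0.11, adjusted p = 0.0176). Of 33 other TRIM genes tested of 67 listed, 2 were higher and 1 lower in exp at day 16, with a median of -0.03, against 3.1% of all genes higher and 3.01% lower. Trim12c was higher by 0.62 (SE 0.11, adjusted p = 0.0301), Trim47 was higher by 0.39 (SE 0.07, adjusted p = 0.0294), and Trim16 had a difference of -0.57 (SE 0.10, adjusted p = 0.0289). Trim12c was also the TRIM gene of the 33 whose slope differed between the lines, by 2.14 (SE 0.34, adjusted p = 0.0326). Within exp, 3 of the 33 rose, against 1.36% of all genes, namely Trim12c by 1.51 (SE 0.22, adjusted p = 0.00447), Trim34a by 1.07 (SE 0.19, adjusted p = 0.0101) and Trim12a by 0.92 (SE 0.21, adjusted p = 0.0309).

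**Figure D5:**
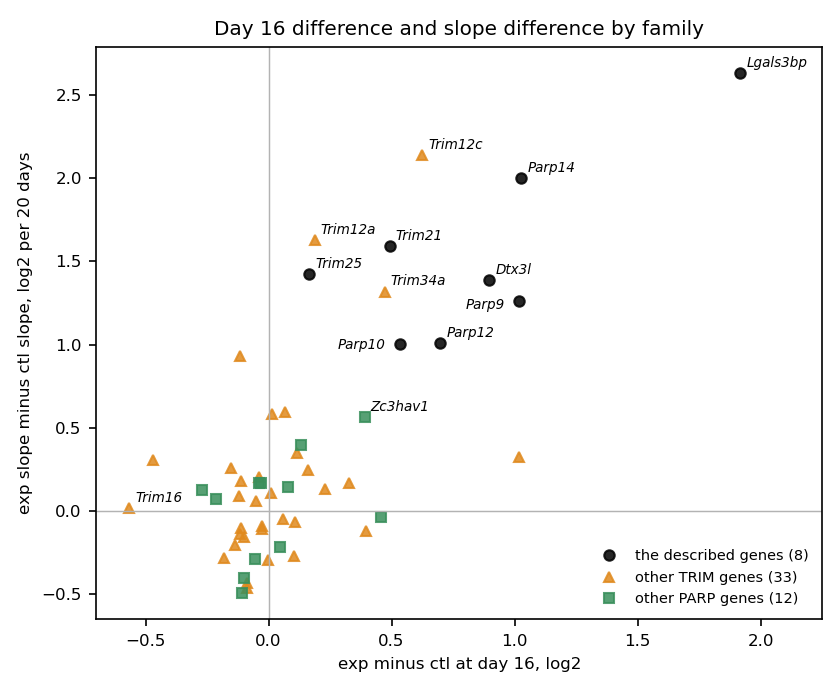
Exp-minus-ctl log2 difference at day 16 (x axis) against the exp-minus-ctl slope difference in log2 per 20 days (y axis) for the 8 described genes (black), 12 other PARP genes and 33 other TRIM genes. The described genes and Trim12c, Trim12a and Trim34a lie in the upper right, while most relatives lie near 0.

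Stat2 and Irf9, which encode transcription factors of the interferon response, were higher in exp at day 16, by 0.88 for Stat2 (SE 0.12, adjusted p = 0.0164) and 1.03 for Irf9 (SE 0.08, adjusted p = 0.00178). The slope difference passed for Irf9, at 1.29 (SE 0.21, adjusted p = 0.0395), and did not for Stat2 (adjusted p = 0.485). Of 10 interferon genes listed, none reached the filter. Ifna1, Ifna4, Ifna5, Ifng, Ifnl2 and Ifnl3 were at 0 in all 16 libraries, and Ifnb1, the interferon gene that fibroblasts are known for, had 6 reads in all with at most 2 in a library. At this depth a difference in interferon transcripts between the lines was not detectable.

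The genes most like the 9 were named by the highest Pearson r of log2(FPKM + 1) with the mean profile of the 8 tested genes, over 16 libraries of 2 lines. They were Ddx58 (r = 0.98), Ifit3b (0.96), Oasl2 (0.96), Psmb8 (0.95), Rtp4 (0.95), Ifit1 (0.95), Ifit3 (0.94) and Xaf1 (0.94). Gene by gene, the closest was Ifi44 to Parp9 (r = 0.98), Rtp4 to Dtx3l (0.98), Tapbp to Parp10 (0.95) and Oasl2 to Parp12 (0.97). It was Ddx58 to Parp14 (0.94), Trim12c to Trim21 (0.93), Isg15 to Lgals3bp (0.99) and Col8a1, a collagen gene, to Trim25 (0.94). The day 16 difference was thus not particular to the 9 genes. On the log2 scale it was 2.57 for Isg15, 2.12 for Oasl2, 1.98 for Ifit1, 1.97 for Ifi44 and 1.86 for Rtp4. Their limma adjusted p ran from 0.000124 to 0.00623. Tapbp and Col8a1 did not pass (adjusted p = 0.465 and 0.156).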

How the data were processed

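Libraries were made with a TruSeq mRNA kit, per the labels' protocols, and their titles gave line and day. The authors deposited FPKM per gene ID, 1 file per library. The submitters' processing notes name mm9 and Bowtie2 2.2.3, while the tool that counted reads, its annotation and its use of strand were not stated in the labels or files read here. Of 24485 IDs, 24416 were matched to a symbol. The 9 genes, the gene lists and the tests were chosen with earlier results of these data known. All 9 genes are named, together with relatives past the threshold and the genes of highest correlation. The result of 1 listed relative is not reported here, and marker lists are given as sums, counts and the day 16 calls.

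Tests used limma 3.58.1 in R 4.3.3 on log2(FPKM + 1) of genes with a mean of at least 1 FPKM, with trend and robust empirical Bayes, two-sided, Benjamini-Hochberg over all genes. The pseudocount understates changes of low genes. Day 16 used 6 libraries. The slope difference (line by day) and the late-minus-early step used 16 libraries with day as a factor, and slopes within lines came from a joint fit. On simulated data with 200 changed genes, changes of 2-fold were recovered in 95.5% of cases at day 16 and in 52.2% for the slope difference. The simulated libraries were independent, with a dispersion of 0.01 and no replicate that stood apart as replicate 1 of day 16 did. These rates therefore may overstate the recovery in the real libraries.

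Within a library, FPKM values were whole multiples of 1 read's value. Whole reads were recovered for 18966 of 18966 genes with reads in at least 2 libraries, within 0.005 read by the rule of acceptance (98.8% of 18665 genes on simulated data), and gave the depths; limma voom on these reads was an alternative. Intervals are exact binomial and cover counting error only. Same-numbered day 16 replicates of the lines deviated together (r = 0.381, 0.272 and 0.333 over 12533 genes), so a fit with the number as a block was also made. Replicates 2 and 3 of the lines also correlated across numbers (r = 0.398 for exp 3 with ctl 2 and 0.209 for exp 2 with ctl 3). Replicate 1 was apart from these 2, so day 16 held 2 sets. Coordinates are from GENCODE on mm9. Alternatives were other pseudocounts, filters and scalings, limma without trend, voom, the block, and each replicate and day left out. Voom on genes with at least 10 reads, and leaving out day 16 replicate 1 of both lines, were chosen after seeing the data.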

Additional observations from a re-analysis of the deposited data

Results flagged for a closer look

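The courses over time were compared between the lines by a fit of the difference itself. The genes were chosen from these same values, so the results are descriptions and not independent evidence. The slope of exp minus that of ctl, per 20 days on the log2 scale, was 2.63 for Lgals3bp (SE 0.32, limma adjusted p = 0.0195), 1.59 for Trim21 (SE 0.21, adjusted p = 0.0195), 1.39 for Dtx3l (SE 0.22, adjusted p = 0.0325) and 1.26 for Parp9 (SE 0.19, adjusted p = 0.0301). The exp-minus-ctl difference was larger at days 12 to 20 than at days 0 to 9 by 1.01 for Trim21 (SE 0.15, adjusted p = 0.0391), 0.99 for Trim25 (SE 0.16, adjusted p = 0.0444) and 0.70 for Parp12 (SE 0.09, adjusted p = 0.0292). Of all genes tested, 0.183% were called with a steeper slope in exp and 0.175% with a larger later difference. None of these slope calls held without day 0 or without day 16, and none of these step calls held with the replicate block.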

How the results depend on the processing

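No value of the 9 genes changed sign among the 931 recomputed values, of which 799 kept their side of the threshold, 120 were no longer past it and 12 came to pass it. At day 16 the count of 6 genes ran from 3 to 6 with a replicate left out, and the same fits called 197 to 1599 genes in all, against 765. For the slope difference the count of 4 ran from 0 to 4 with a replicate left out. It was 0 without day 0, 0 without day 16, 0 without day 16 replicates 2 and 3, 0 with the day 16 replicates averaged, 1 without day 5, 2 without day 9 and 2 without day 12. For the slope within exp the count of 7 was 0 without day 0, 1 without day 16 and 4 with the replicates averaged. For the late-minus-early step the count of 3 ran from 0 to 1 with a replicate left out. It was 0 with no filter on low values, 0 with the replicate block, 0 without day 0, 0 without day 5, 0 without day 16, 0 without day 20, 0 without day 16 replicates 2 and 3, 0 with the replicates averaged and 0 without day 16 replicate 1 of both lines. It was 1 at a mean of at least 5 FPKM, 1 under quantile normalization, 5 without day 9 and 6 without day 12. The cause was not tested; leaving out a day or replicate also leaves fewer samples.

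With the replicate number as a block the counts were 6 at day 16 (Parp10 gained, Trim21 lost), 3 for the slope difference (Dtx3l lost) and 7 within exp, and no other call changed outside the step. Median-of-ratios rescaling moved the median exp slope of all genes from -0.09 to 0.02, and relative to it the median of the 8 genes was 1.15 as deposited and 1.13 rescaled. Over all genes, the number called differed by over 1.5 times between settings, from 197 to 4326 at day 16 against 765, from 0 to 50 for the slope difference against 26, from 9 to 1381 within exp against 622, and from 0 to 41 for the step against 23. Depth limits Trim30a, with 2 to 5 reads in exp through day 9, and the interferon genes.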
